A study of Homo sapiens with 24 samples.

Results

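This account covers the early response of U2932 cells to trabectedin: 3 arrays of cells exposed to the drug for 8 h were set against 3 arrays of cells exposed to the solvent DMSO for 8 h, 6 of the 24 arrays of the series. The arrays were chosen by their titles, in which the drug is written as ET. U2932 is an established human line of diffuse large B cell lymphoma that is commonly classed as activated B cell-like. The other 18 arrays hold U2932 at 24 h and OCI-Ly7, a line commonly classed as germinal centre B cell-like, at 8 h and 24 h, each with drug and with DMSO. The labels give no dose, name no genetic change introduced into the cells, and do not say whether the 3 replicates of a group were separate cultures, so that p-values measure the spread between these arrays, which may be technical. Total RNA was amplified to biotin-labelled cRNA and hybridised to Illumina bead arrays.

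Trabectedin is a tetrahydroisoquinoline alkaloid that binds guanine in the minor groove of DNA. It is known to interfere with transcription by RNA polymerase II and with transcription-coupled nucleotide excision repair. RNA polymerase II reads introns as well as exons, so a long gene takes longer to transcribe than a short one. Transcripts also differ in how fast they decay: those of immediate early genes are short-lived, those of ribosomal proteins are stable.

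The trabectedin arrays were dimmer. Mean probe intensity ranged from 456 to 466 on the trabectedin arrays and from 520 to 556 on the DMSO arrays (exact permutation p = 0.1, two-sided, the smallest that 3 against 3 arrays can give). Probes above background, defined by a detection p under 0.01 against probes of families that B cells do not express, numbered 12832 ± 106 (SD, n = 3) per trabectedin array and 14528 ± 167 per DMSO array (exact permutation p = 0.1). With detection p under 0.05 the numbers overlapped, at 16395 to 18065 and 17799 to 18720 (exact permutation p = 0.2). Replicates correlated at r between 0.996 and 0.997 across probes, and arrays of different treatment at r between 0.941 and 0.947. All 6 arrays lie on 1 chip, but the trabectedin arrays occupy positions A, C and E and the DMSO arrays positions G, I and K, so treatment and position on the chip cannot be told apart. In such bulk RNA, fewer cells of a kind and less RNA per cell cannot be told apart either, and every change below is relative to the other RNAs on the same array.

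The cells carried B cell transcripts and few of other lineages. Of 13 B cell markers with a probe, 11 were detected on every DMSO array, among them CD79A, CD79B, MS4A1 (CD20), CD22 and CD74, while the PAX5 probe was in the background on all 6 arrays. The summed level of the list, in linear units, ranged from 30483 to 31924 on the trabectedin arrays and from 32524 to 33316 on the DMSO arrays. Of 19 T and NK cell markers LCK alone was detected on every DMSO array, and CD3D, CD3E and CD3G were in the background on all 6. Of 15 fibroblast and endothelial markers VIM alone, of 11 epithelial markers EPCAM alone, and of 8 erythroid markers none was detected on every DMSO array. Summed levels on the trabectedin and DMSO arrays ranged from 504 to 527 and from 496 to 513 for the T and NK cell list, from 684 to 728 and from 543 to 575 for fibroblasts and endothelium, from 1642 to 1789 and from 1843 to 2167 for epithelium, and from 220.5 to 278 and from 208 to 224 for erythroid cells. What part such differences have in other results was not tested.

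At 8 h the expression of about as many genes rose as fell, and the falls were deeper. Of 10138 genes tested, 3249 were called higher after trabectedin (32.0% of the genes tested) and 3669 lower (36.2%), with limma and a Benjamini-Hochberg adjusted p under 0.05. A change of at least 1 on the log2 scale, a doubling or halving of the normalised intensity, was reached by 1020 of the higher and 1787 of the lower genes, by 407 and 949 without background correction, and by 404 and 3298 under the median scaling described below. On all but a few of the called genes the 2 groups of arrays did not overlap. Every trabectedin array lay above every DMSO array for 3223 of the higher genes and below for 3650 of the lower ones. The calls rest on the same values, so this separation is no independent support for them. The split between rises and falls depends on how the arrays are scaled to each other. With arrays aligned on the median of all probes in place of quantile normalisation, the median change of all genes moved from -0.003 to -0.45, and 1095 genes were called higher and 4969 lower. Of the 179 genes whose change is given here or in the closing section, 167 kept their direction and their side of the threshold under that scaling. H2BC11 and GPC6 changed sign, and BCL2A1, CDT1, DDIT3, DDIT4, ERCC2, H4C3, IKZF2, IRF1, PES1 and SNRPD3 kept their direction without passing the threshold.

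Gene length ordered the changes. The span of a gene, from its start to its end in the RefSeq annotation of assembly GRCh38.p14 and so with its introns, was known for 10133 of the genes tested. Genes called higher had a median span of 11.9 kb, genes called lower one of 63.3 kb, and genes not called one of 21.9 kb. Of the 2560 genes spanning under 10 kb, 55.8% were called higher and 10.9% lower, with a median change of 0.44 on the log2 scale. From 10 to 30 kb the median was 0.19, and 41.1% of 2955 genes were higher and 20.8% lower. Between 30 and 100 kb the balance had turned, with 16.2% of 3137 genes higher, 51.5% lower and a median of -0.36. Of the 1234 genes of 100 to 300 kb, 79.8% were lower and 6.16% higher, and the median was -1.27. The 247 genes of 300 kb and over did not fall further: their median was -1.22, with 70.04% lower and 8.91% higher.

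**Figure D1:**
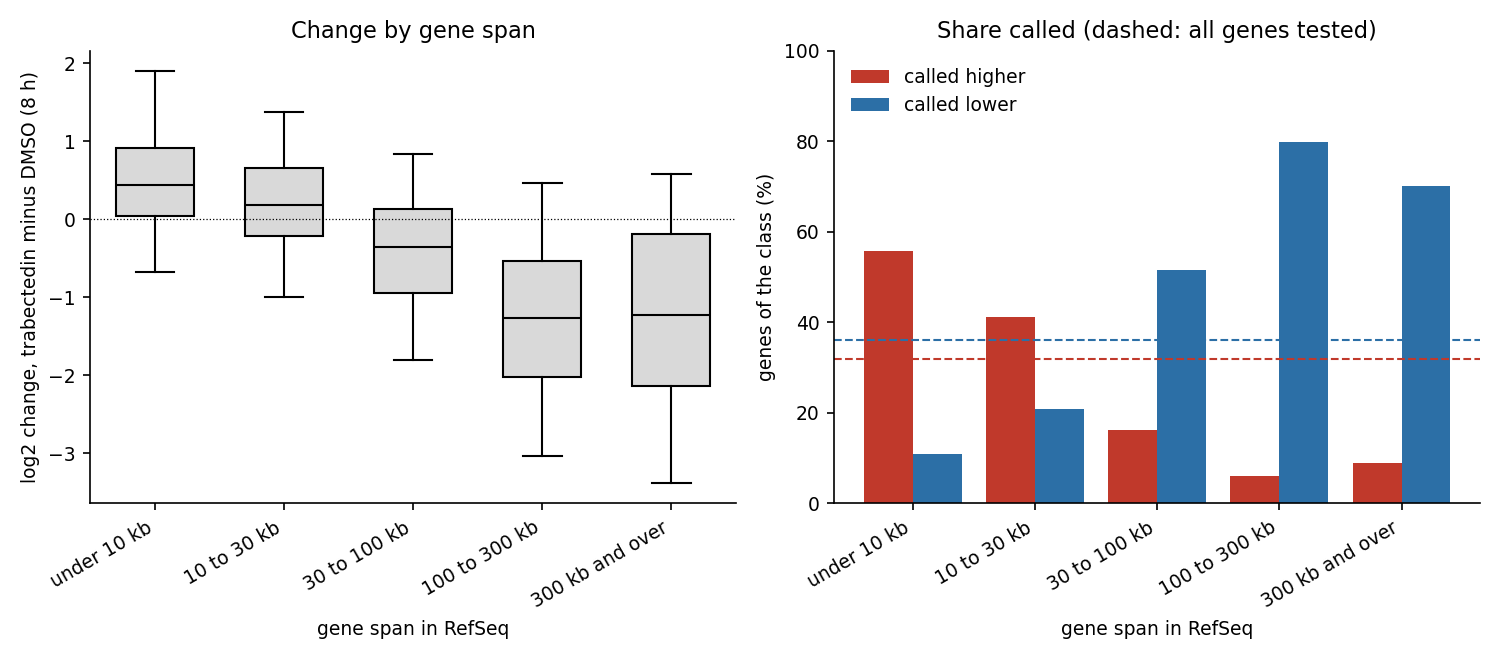
Left, box plots of the log2 change (trabectedin minus DMSO, 8 h) of all genes tested in 5 classes of gene span; the box covers the interquartile range, the line is the median, and the whiskers leave out the same small share of genes at either end. Right, the percentage of each class called higher or lower, with dashed lines at the 32.0% and 36.2% of all genes; the class medians run from 0.44 under 10 kb to -1.27 at 100 to 300 kb.

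The medians by span were alike on the arrays of a group. With each gene centred on its mean over the 6 arrays, the DMSO values mirror the trabectedin values by construction. Relative to the mean of a gene over the 6 arrays, the median gene under 10 kb stood at 0.21, 0.23 and 0.21 on the trabectedin arrays and at -0.23, -0.20 and -0.23 on the DMSO arrays. The median gene of 100 to 300 kb stood at -0.65, -0.64 and -0.62 on the trabectedin arrays and at 0.63, 0.63 and 0.65 on the DMSO arrays. Level and length are related only weakly here (Spearman correlation of span with mean level -0.16 across genes), and the first 4 classes kept their order in each tertile of mean level, a split chosen after seeing the data. In the brightest tertile, for example, the median ran from 0.28 under 10 kb to -1.25 at 100 to 300 kb. Across genes, which are not independent replicates, span and change had a Spearman correlation of -0.58, and of -0.53 over the 7043 genes detected on all 6 arrays. Many long genes sank into the background, where a fitted change depends on the background correction. With genes in the background on all arrays of 1 group set at their lower bound, and those in the background in both groups left out, the medians of the 5 classes were 0.45, 0.21, -0.27, -0.99 and -0.69. Under median scaling the order stayed, shifted downwards, from 0.09 under 10 kb to -1.94 at 100 to 300 kb.

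Among genes that stayed above background on all 6 arrays, the largest fall was that of TNS3, a tensin that links integrins to the actin cytoskeleton. Its normalised log2 intensity was 6.24, 6.35 and 6.24 on the trabectedin arrays and 10.36, 10.43 and 10.53 on the DMSO arrays. That is a change of -4.16 ± 0.15 (SE, n = 3 per group, limma adjusted p = 4.83e-16), and the gene spans 307 kb. ARHGEF7, an exchange factor for Rac and Cdc42, went from 10.06, 10.25 and 10.15 in DMSO to 6.31, 6.36 and 6.73, a change of -3.69 ± 0.18 in a gene of 191 kb. MBNL1, a splicing regulator of the muscleblind family, went from 11.59, 11.46 and 11.48 to 8.10, 8.14 and 8.20 (-3.36 ± 0.24, span 222 kb). In all 3 genes the spread within a group was small beside the gap between the groups.

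The other 12 include signalling proteins, adaptors and a lipid-binding protein. SIK3, a salt-inducible kinase, fell by 3.48 ± 0.18, and RAPGEF5, an exchange factor for Rap GTPases, fell by 3.42 ± 0.24. APBB1IP (RIAM), the adaptor through which Rap1 activates integrins, fell by 3.09 ± 0.22, with values of 7.28, 7.38 and 7.16 against 10.35, 10.51 and 10.23 in DMSO. OSBPL10, a lipid-binding protein of the oxysterol-binding family, fell by 3.46 ± 0.17, SLMAP, a membrane-anchored scaffold, fell by 3.66 ± 0.20, and the adaptor CMIP fell by 3.38 ± 0.20. Others act in the nucleus. LEF1, the transcription factor at the end of Wnt signalling, fell by 3.06 ± 0.19, and GTF2F2, a subunit of the general transcription factor TFIIF, fell by 3.13 ± 0.16. The ubiquitin ligase COP1 fell by 3.24 ± 0.22, and PHF3, which binds the tail of RNA polymerase II, by 3.12 ± 0.16. The zinc finger gene ZNF532 fell by 3.30 ± 0.12. TMEM131L fell by 3.32 ± 0.19. The shortest of the 15 genes, PHF3, spans 90.2 kb, against a median of 26.2 kb over all genes tested.

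**Figure D2:**
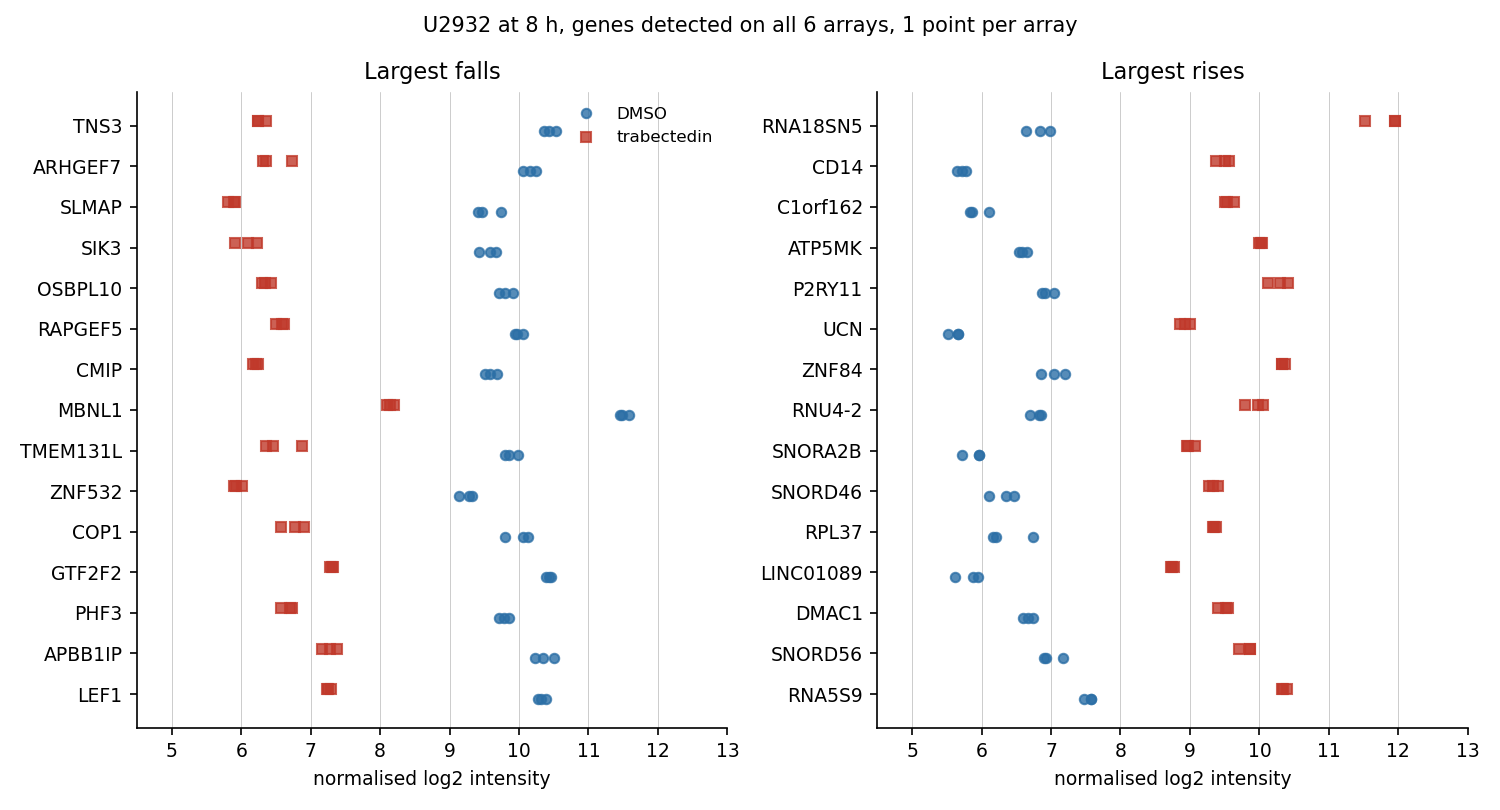
Normalised log2 intensity of the 15 genes with the largest falls (left) and the 15 with the largest rises (right) among genes detected on all 6 arrays, with 1 point per array, circles for DMSO and squares for trabectedin. For every gene shown the 3 trabectedin arrays lie apart from the 3 DMSO arrays, as the choice of genes required.

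A further 1034 genes were detected on all DMSO arrays and lost, that is, in the background on all 3 trabectedin arrays. Their change is given as a lower bound against the dimmest detected probe of each array. PLCL2, a phospholipase C-like protein of inositol phosphate signalling, stood at 10.04, 10.09 and 9.98 in DMSO and was at least 19.01-fold lower. FOXN3, a forkhead repressor, was at least 17.1-fold lower, the deubiquitinase gene STAMBPL1 at least 17.01-fold, and ELMO1, which activates Rac together with DOCK proteins, at least 16.6-fold. All 3 DMSO arrays of ELMO1 were bright, at 9.78, 9.79 and 9.95. The ubiquitin-conjugating enzyme gene UBE2E2 was at least 11.96-fold lower, TTC27 at least 11.3-fold, the BTB zinc finger gene ZBTB7C at least 10.6-fold and the Rap exchange factor RAPGEF6 at least 10.4-fold. Of these, STAMBPL1 with 43.2 kb was the shortest. CRSP8P, at least 10.7-fold lower, is annotated as a pseudogene of 1.36 kb derived from the Mediator subunit gene MED27. MED27, with a span of 219.8 kb, was itself in the background after treatment and at least 3.05-fold lower, and signal of the 2 sequences could not be separated.

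Length did not order every gene. The following genes were picked after their values were seen. Among genes under 10 kb that stayed above background, PVRIG, an inhibitory receptor of lymphocytes, fell from 9.99, 10.14 and 10.02 to 7.41, 7.46 and 7.39 (-2.63 ± 0.15, span 2.24 kb), and the exosome subunit gene EXOSC3 from 11.17, 11.19 and 11.21 to 8.70, 8.62 and 8.71 (-2.51 ± 0.10, 5.38 kb). METTL1, a tRNA methyltransferase, fell by 2.14 ± 0.18, SAP30, a subunit of the SIN3 histone deacetylase complex, fell by 2.08 ± 0.22, and TCL1A, an AKT coactivator of B cells, fell by 1.45 ± 0.11. Each of these 5 falls was larger than that of the median gene of 100 to 300 kb (-1.27). In the other direction, IKZF3 (Aiolos), a transcription factor of lymphoid cells that spans 107 kb, rose from 7.15, 6.77 and 7.06 to 9.11, 9.02 and 9.10 (2.08 ± 0.15). The long non-coding RNA MIR9-2HG rose by 1.84 ± 0.11 across 153 kb, and NUBPL, a complex I assembly factor, by 1.06 ± 0.12 across 299.8 kb. A probe reads only a short stretch of 1 or a few transcripts, and a short isoform of a long gene carries the span of the whole gene here.

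The largest rises were of short genes and small RNAs. The probe for 18S ribosomal RNA (RNA18SN5) read 11.95, 11.52 and 11.95 on the trabectedin arrays and 6.99, 6.84 and 6.65 on the DMSO arrays, and 5S ribosomal RNA (RNA5S9) 10.39, 10.33 and 10.34 and 7.57, 7.57 and 7.48. U4 spliceosomal RNA (RNU4-2) rose by 3.15 ± 0.24, and the small nucleolar RNAs SNORA2B, SNORD46 and SNORD56, guides of ribosomal RNA modification, by 3.12 ± 0.27, 3.03 ± 0.21 and 2.81 ± 0.17. These RNAs belong to families of near-identical copies, and whether the probes read mature or unprocessed forms was not measured.

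Among protein-coding genes CD14, the lipopolysaccharide co-receptor of monocytes, went from 5.65, 5.77 and 5.71 to 9.37, 9.51 and 9.57 (3.77 ± 0.18, limma adjusted p = 2.27e-14). Of 17 myeloid markers, CD14 and CD68 were detected on every DMSO array, MPO, FCER1G and AIF1 joined them on every trabectedin array, and 11, among them LYZ, CSF1R, ITGAM, S100A8 and TYROBP, were in the background on all 6. The summed level of the list ranged from 2034 to 2044 on the trabectedin arrays and from 842 to 890 on the DMSO arrays. C1orf162 rose by 3.63 ± 0.15, ATP5MK, a small subunit of ATP synthase, by 3.43 ± 0.10, and P2RY11, a purinergic receptor, by 3.33 ± 0.25. UCN, the hormone urocortin, rose from 5.51, 5.67 and 5.67 to 8.85, 9.01 and 8.92, a change of 3.31 ± 0.14. The zinc finger gene ZNF84 rose by 3.31 ± 0.15, the ribosomal protein gene RPL37 by 2.98 ± 0.19, LINC01089 by 2.93 ± 0.22 and the mitochondrial gene DMAC1 by 2.81 ± 0.16. ZNF84, at 25.8 kb, was the longest of the 15 genes with the largest rises.

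As classes, probes of most small RNAs tested read higher, and fewer passed under median scaling. Whether these probes read mature, unprocessed or other forms was not measured, so the counts below are of probe signal. Of 180 small nucleolar and Cajal body RNAs tested, 153 were higher and 5 lower (109 and 10 under median scaling). Over all genes tested the shares were 32.0% and 36.2%. The median was 1.14 (0.59 under that scaling and 0.62 without background correction) beside -0.003 over all genes. Of the 180, 19 were in the background on all 6 arrays and 39 on all arrays of 1 group. With the 39 at their bound and the 19 left out, the median was 1.07. Among the RNAs called lower was SNORA24, which fell by 0.69 ± 0.14. Of 25 other structured RNAs, 22 were higher and none lower (17 and none under median scaling), with a median of 1.20 (0.94 and 0.76). Small nucleolar RNAs are cut from introns of host genes, and among 22 host and nuclear long non-coding RNAs 14 were higher and 2 lower (8 and 6 under median scaling). GAS5, a host gene detected on the trabectedin arrays alone, was at least 2.87-fold higher, and MIR17HG, which carries the miR-17-92 cluster, went from 6.35, 6.34 and 6.24 to 8.50, 8.53 and 8.33 (2.14 ± 0.15).

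The replication-dependent histone genes, short and without introns, rose with them: 33 of 40 tested were higher and 1 lower (25 and none under median scaling). Their median was 0.90 (0.56 under that scaling and 0.48 without background correction). Of the 40, 9 were in the background on all 6 arrays, and another 9 on all arrays of 1 group. With the latter at their bound and the former left out, the median was 0.97. H2BC5 stood at 9.90, 9.89 and 9.89 on the trabectedin arrays and at 7.49, 7.34 and 7.35 on the DMSO arrays. H2AC17 rose by 2.52 ± 0.15 and H2BC21 by 2.61 ± 0.21, although only 2 and 1 of their 3 DMSO arrays were above background. H4C3 fell from 13.57, 13.34 and 13.46 to 13.01, 13.02 and 13.16 (-0.39 ± 0.12). Of the histone genes not tied to replication, H3-3B rose by 1.77 ± 0.12 and H1-10, a linker histone, by 1.69 ± 0.19, while the centromeric CENPA fell by 1.35 ± 0.14 by its brightest probe, and another CENPA probe was called higher. Histone genes are near-identical to each other, and signal of copies could not be separated. Whether their probes read mature or unprocessed transcripts was not measured, so the rise is one of probe signal.

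Promoters of replication-dependent histone genes often carry a TATA box, and their promoter sequences were set beside the changes. RefSeq promoters, from 250 bases before to 50 bases after the start, were available for 37 of the 40 histone genes and for 8172 of the genes tested. The letters TATAAA on the strand of the gene occurred in 22 of the 37 histone promoters (59.5%), in 3.82% of the promoters of all genes tested, and in 7.71% of all 27305 promoters of the table. The promoters of the 3 histone genes with the largest rises and of H2BC11, the one with the smallest rise among those detected on all 6 arrays and called higher, are printed 5′ to 3′ on the strand of the gene, with TATAAA in capitals (RefSeq, GRCh38.p14).
H2BC21, chr1:149886633-149886932, minus strand: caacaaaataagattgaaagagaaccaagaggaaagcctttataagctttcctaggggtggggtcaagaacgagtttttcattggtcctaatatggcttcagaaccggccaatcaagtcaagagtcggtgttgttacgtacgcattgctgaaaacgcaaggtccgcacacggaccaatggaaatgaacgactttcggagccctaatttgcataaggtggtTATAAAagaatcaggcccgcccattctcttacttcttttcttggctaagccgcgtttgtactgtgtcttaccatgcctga
H2AC17, chr6:27893136-27893435, minus strand: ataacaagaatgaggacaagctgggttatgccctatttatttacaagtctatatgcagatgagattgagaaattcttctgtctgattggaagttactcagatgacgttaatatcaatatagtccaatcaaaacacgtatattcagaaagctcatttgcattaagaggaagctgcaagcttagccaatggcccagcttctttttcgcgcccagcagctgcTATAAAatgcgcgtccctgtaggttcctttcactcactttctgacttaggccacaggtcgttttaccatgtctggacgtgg
H2BC5, chr6:26157871-26158170, plus strand: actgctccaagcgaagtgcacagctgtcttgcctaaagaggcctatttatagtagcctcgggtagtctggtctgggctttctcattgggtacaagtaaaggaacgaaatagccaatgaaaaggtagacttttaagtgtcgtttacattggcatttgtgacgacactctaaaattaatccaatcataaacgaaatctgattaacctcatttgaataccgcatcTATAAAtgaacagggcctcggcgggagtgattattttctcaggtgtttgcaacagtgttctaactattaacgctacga
H2BC11, chr6:27132746-27133045, minus strand: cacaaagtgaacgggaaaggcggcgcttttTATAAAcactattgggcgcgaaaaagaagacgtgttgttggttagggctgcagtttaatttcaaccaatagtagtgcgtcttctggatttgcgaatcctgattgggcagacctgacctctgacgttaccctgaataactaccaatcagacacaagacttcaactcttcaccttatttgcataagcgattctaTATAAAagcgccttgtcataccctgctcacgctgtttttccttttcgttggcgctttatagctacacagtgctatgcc
The match begins 30, 31 and 28 bases before the start of H2BC21, H2AC17 and H2BC5. H2BC11, which changed by 0.41 ± 0.15, from 6.82, 6.96 and 6.82 to 7.39, 7.27 and 7.17, and by -0.41 under median scaling (limma adjusted p = 0.104), also has a match at 28 bases, besides another at 220. Its limma adjusted p was 0.0218 over all arrays and lay between 0.0608 and 0.0812 without trabectedin replicate 1, DMSO replicate 1 or DMSO replicate 3. Of the 22 histone genes with a match 20 were higher and of the 15 without 12, with medians of 1.24 and 0.61. Outside the histones the share with TATAAA was 4.42% of the promoters of higher genes and 3.56% of those of all genes tested, and among genes under 10 kb, histones included, 7.71% and 6.94%. The AP-1 site TGACTCA, on either strand, was in 3.07% of the promoters of higher genes, 2.41% of those of lower genes and 2.74% of all. These are matches of letters, not measured binding.

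In 221 genes transcripts were in the background on all DMSO arrays, detected on all 3 trabectedin arrays and called higher. CRABP2, a retinoic acid carrier with the largest lower bound, stood at 9.17, 9.30 and 9.41 and was at least 14.3-fold higher. For CPLX4, a retinal complexin, the bound was 12.7-fold, for TSPOAP1 12.1-fold, and for IDI2, a paralogue of isopentenyl diphosphate isomerase, 11.7-fold. COXFA4L3 was at least 9.06-fold higher, CHN1, a Rac-specific GTPase-activating protein of neurons, at least 8.04-fold, and growth hormone, GH1, at least 7.29-fold, though its sequence is close to that of other genes of its cluster. The non-coding RNA BCAR4 was at least 6.71-fold higher, ARL9 at least 6.28-fold and C9orf152 at least 6.22-fold. Their values on the trabectedin arrays were close to each other, as for GH1 with 8.35, 8.30 and 8.32.

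Many of these genes lay downstream of an expressed gene on the same strand. Neighbours were looked for within 50 kb among genes with a probe and a known strand in the RefSeq tables, which left 149 of the 221 genes. Other genes could not be picked, so a nearer gene may lie between the members of a pair. For 78 of the 149 (52.3%) the nearest such upstream gene on the same strand was detected on all DMSO arrays. The same was true of 15.02% of the 7238 genes that stayed in the background on all 6 arrays, a set that includes clusters of silent genes such as olfactory receptors. On the opposite strand upstream the shares were 23.5% and 12.6%, and downstream on the same strand 21.5% and 14.02%. An upstream neighbour on the same strand, detected or not, was present for 65.8% and 38.1%, and of those neighbours 79.6% and 39.4% were detected. The median gap between the 78 pairs was 8.98 kb.

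The upstream neighbours moved in either direction. Of the 78, 32 were called higher and 21 lower, beside 32.0% and 36.2% of all genes tested. Their median change was 0.12, beside -0.003 over all genes, a value that moved to -0.45 under median scaling. The pairs named were picked after their values were seen. CPLX4 lies 9.17 kb behind LMAN1, a cargo receptor of the early secretory pathway, which stood at 10.47, 10.47 and 10.38 on the trabectedin arrays and at 10.49, 10.39 and 10.51 in DMSO (-0.02 ± 0.14). AMH, the anti-Müllerian hormone, lies 0.668 kb behind the splicing factor gene SF3A2. Its bound was at least 5.43-fold higher, and SF3A2 changed by 0.08 ± 0.17. APOE, apolipoprotein E, lies 2.11 kb behind TOMM40, a mitochondrial import channel, and was at least 4.996-fold higher, with -0.09 ± 0.17 for TOMM40. CRABP2 lies 31.5 kb behind MRPL24, which fell by 0.97 ± 0.11, and BCAR4 39.3 kb behind the translation termination factor gene GSPT1, which fell by 0.53 ± 0.11. GGT1 lies 8.78 kb behind SNRPD3, a core spliceosomal protein gene that rose (0.80 ± 0.17), and was itself at least 5.04-fold higher. The pairs thus hold neighbours that rose, that fell and that were not called. IDI2 behind IDI1, COXFA4L3 behind AFG2B, ARL9 behind SRP72, C9orf152 behind TXN, PAQR6 behind SMG5 and RDH5 behind BLOC1S1 complete the 12 pairs with the largest bounds. Whether transcripts run from the neighbour into the gene cannot be read from these probes.

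**Figure D3:**
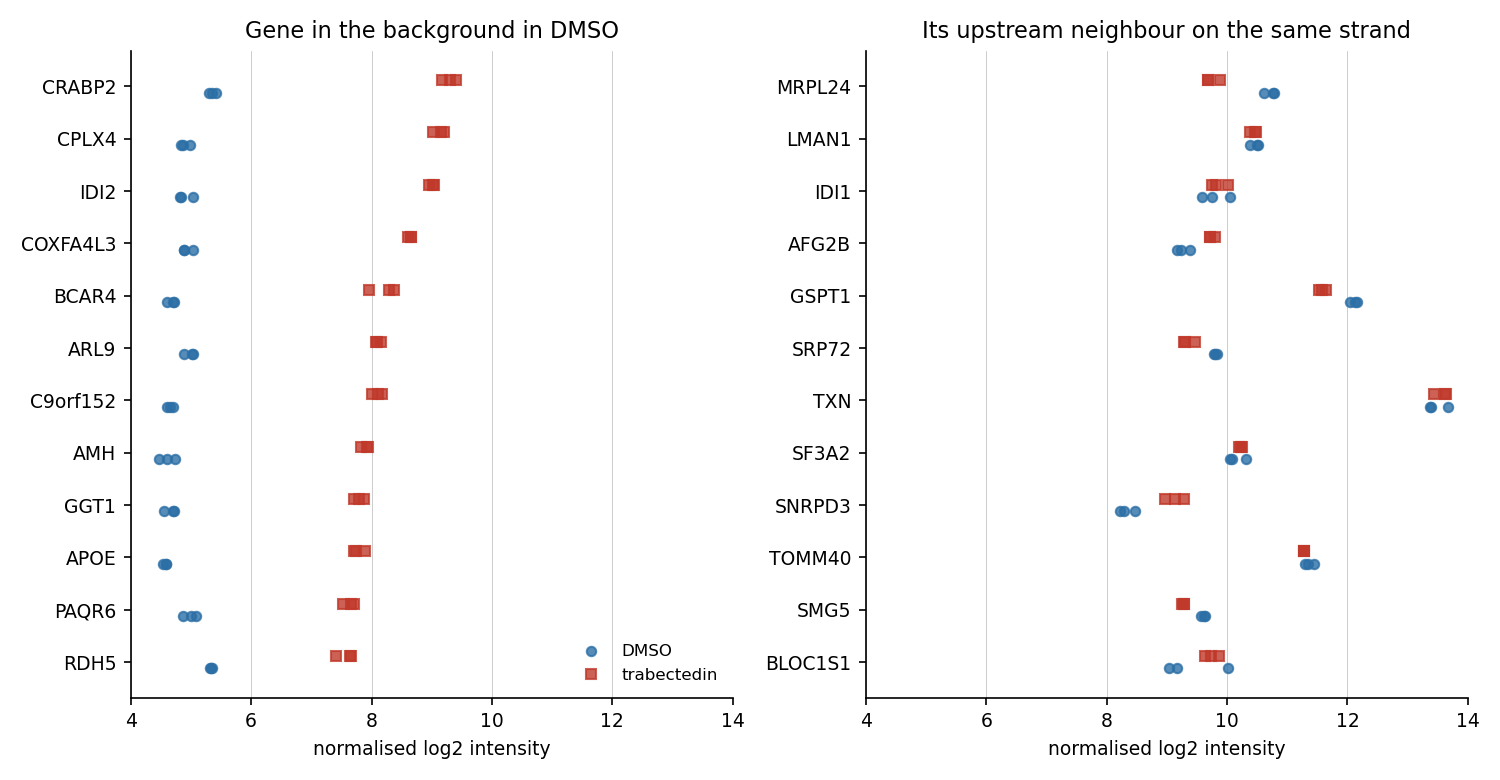
Normalised log2 intensity on each of the 6 arrays for the 12 genes with the largest lower bounds among those in the background in DMSO that have a detected upstream neighbour (left), and for that neighbour (right), with circles for DMSO and squares for trabectedin. The genes on the left separate by treatment, as their choice required, while the neighbours on the right stay within about 1 unit of their DMSO arrays.

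Different probes of 1 gene did not always move together. Of 2626 genes with more than 1 tested probe, 147 had probes called in opposite directions. The count includes calls of probes that were in the background on every array compared. In KIF23, RNF213, ZNF493, HPS5 and PSMG4, for example, such a probe gave the only call in its direction. For these genes opposite movement of transcripts is not shown, since a fitted change in the background depends on the background correction. The genes described below were picked among the 147 after their values were seen. BCL2, the survival protein and a drug target of lymphoma, has 4 tested probes. Both probes annotated to its alpha transcript fell: one from 12.32, 12.30 and 12.25 to 10.37, 10.62 and 10.54 (-1.78 ± 0.11), the other from 11.93, 12.02 and 11.997 to 10.43, 10.34 and 10.47 (-1.57 ± 0.10). Both probes annotated to the short beta transcript rose, one from 7.44, 7.46 and 7.73 to 8.50, 8.58 and 8.41 (0.95 ± 0.11), the other, detected on only 1 DMSO array, by 1.07 ± 0.19. The beta transcript ends inside the long intron of BCL2.

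ABCF2, of the ATP-binding cassette family without a membrane domain, showed a probe that rose from the background of 4.76, 4.80 and 4.73 to 8.69, 8.58 and 8.67 beside one that fell from 7.38, 7.49 and 7.25 to 6.55, 6.66 and 6.62. The probes of ELF2, an ETS transcription factor, changed by -2.02 ± 0.19 and 1.54 ± 0.16. Those of CAPRIN1, an RNA-binding protein of stress granules, changed by -2.20 ± 0.17, -1.01 ± 0.11 and 1.23 ± 0.24. NR3C1, the glucocorticoid receptor, had probes at -1.66 ± 0.22 and 1.26 ± 0.25, and POLR1D, a subunit shared by RNA polymerases I and III, at -1.37 ± 0.13 and 1.21 ± 0.11. In each of these genes the arrays of a group were close. That the probes disagreed by more than this spread follows from the choice of genes with opposite calls. The direction given for such a gene is that of its brightest probe.

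**Figure D4:**
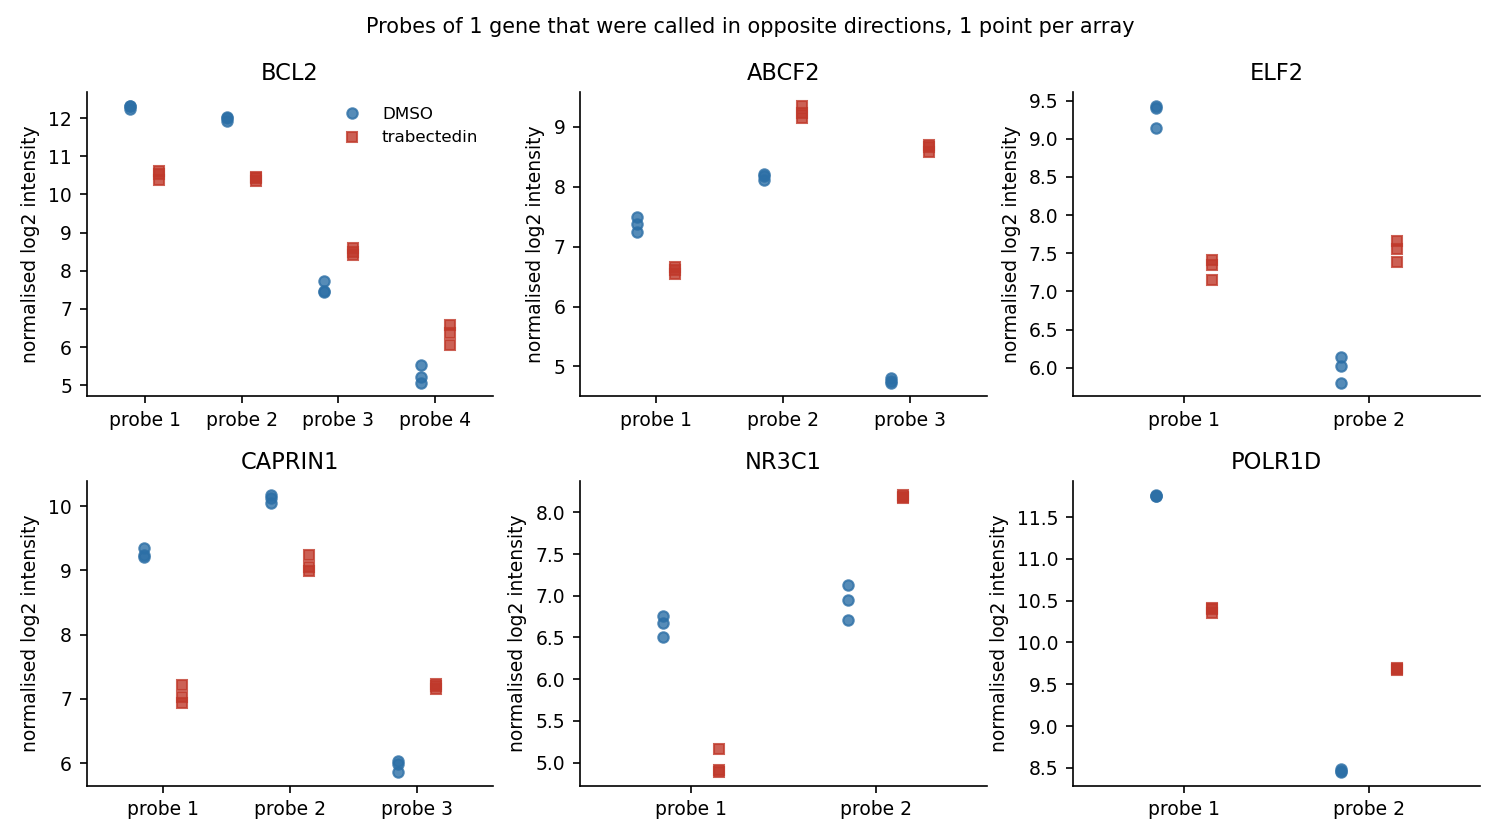
Normalised log2 intensity on each array for the tested probes of 6 genes with probes called in opposite directions, ordered from the largest fall to the largest rise, circles for DMSO and squares for trabectedin. Probes 1 and 2 of BCL2, annotated to its alpha transcript, are lower after trabectedin, and probes 3 and 4, annotated to its beta transcript, are higher.

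Gene groups were described by their counts of members called, to be read against the 32.0% of genes called higher and 36.2% called lower, and against the length of their members. A pair of counts in brackets gives the members higher and lower under median scaling. Spans are given for only some of the genes named. Transcripts of B cell receptor signalling genes fell: of 30 genes 22 were lower and 3 higher (1 and 24). Their median was -0.79 (-1.20 under median scaling, -0.66 with background genes at their bound), and their median span 83.8 kb. Signalling itself was not measured. LYN, the kinase that starts the signal, went from 11.05, 10.96 and 11.09 to 8.49, 8.47 and 8.55 (-2.53 ± 0.15). VAV3, an exchange factor activated by the receptor, was in the background after treatment and at least 2.96-fold lower. FCRL5, an inhibitory Fc receptor-like protein, rose by 1.21 ± 0.14. Of 31 PI3K, AKT and mTOR genes, inhibitors of that pathway among them, 20 fell and 5 rose (2 and 25). Their median was -1.04 (-1.65 under median scaling), or -0.82 at the bounds, and their median span 72.2 kb. PHLPP1, a phosphatase that switches AKT off, was at least 8.14-fold lower and DEPTOR, an inhibitor of mTOR, at least 5.29-fold lower. SGK1, a kinase related to AKT, rose from 5.22, 5.44 and 5.45 to 7.38, 7.39 and 7.62 (2.09 ± 0.27), with only 1 DMSO array above background.

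Of 29 transcription factors of B cells 22 fell and 4 rose (2 and 23), with a median of -1.04 (-1.74 under median scaling) and a median span of 103 kb. EBF1, a pioneer factor of the B cell programme, stood at 8.83, 8.90 and 8.96 in DMSO and was at least 8.64-fold lower. MEF2C, which acts downstream of the receptor, fell by 2.91 ± 0.13 and was above background on only 1 trabectedin array. In the Ikaros family IKZF3 and IKZF2 rose (2.08 ± 0.15 and 0.82 ± 0.15). Surface proteins were called in shares close to those of all genes. Of 35 members 12 were higher and 12 lower (5 and 14), or 34.3% each, beside 32.0% and 36.2% of all genes tested. TNFRSF13B (TACI), a receptor for survival factors of B cells, went from 10.39, 10.55 and 10.31 to 8.59, 8.67 and 8.52 (-1.83 ± 0.14), while SLAMF7, the target of elotuzumab, rose by 1.33 ± 0.16. Markers of the activated B cell-like class, that of U2932, fell in 11 of 21 and rose in 5 (2 and 14). SPIB, an ETS factor of that subtype with a span of only 12.4 kb, fell from 9.62, 9.24 and 9.33 to 7.23, 7.237 and 7.30 (-2.15 ± 0.25), and the kinase PIM2 rose by 0.97 ± 0.14. Markers of the germinal centre subtype were lower in 15 of 18 and higher in none (0 and 18), with CREB3L2 at -2.69 ± 0.19 and SSBP2 at -2.39 ± 0.18.

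NF-kB genes were called in shares near those of all genes. Of 27 members 9 were higher and 8 lower (2 and 14), or 33.3% and 29.6%, beside 32.0% and 36.2% of all genes tested. NFKB1, the p105 precursor, fell from 11.07, 11.28 and 11.003 to 9.35, 9.60 and 9.45 and CHUK, the kinase IKK alpha, fell by 1.75 ± 0.16, with 2 trabectedin arrays above background. NFKBIA, the short-lived inhibitor that NF-kB itself induces, rose from 10.01, 10.10 and 10.24 to 11.47, 11.43 and 11.46 (1.34 ± 0.16). The chemokine genes CCL5 and CCL22 rose by 1.34 ± 0.13 and 1.19 ± 0.09, while LTB, lymphotoxin beta, fell by 0.80 ± 0.16. The interferon regulators IRF1 and IRF7 rose by 1.29 ± 0.31 and 1.70 ± 0.16, and IFI27 was at least 2.45-fold higher, while the RNA sensor IFIH1 was at least 1.60-fold lower. Interferon response genes were higher in 12 of 27 and lower in 4 (4 and 8). Of 15 MHC class II genes 7 were higher and 3 lower (0 and 3). RFXAP, a subunit of the factor that drives class II promoters, fell from 8.47, 8.41 and 8.58 to 6.48, 6.62 and 6.40.

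Immediate early genes, whose transcripts decay within minutes to hours, rose in 28 of 34 members and fell in none (19 and 1), with a median of 1.36 (0.77 under median scaling and 0.74 without background correction) and a median span of 4.71 kb. JUN, in the background without the drug, stood at 7.83, 7.72 and 7.82 with it and was at least 5.03-fold higher, and JUNB went from 5.86, 6.02 and 6.02 to 8.52, 8.61 and 8.38. Genes of the integrated stress response rose in 12 of 24 and fell in 6 (4 and 7). PPP1R15A (GADD34), which ends that response, went from 8.77, 8.94 and 8.76 to 10.76, 10.81 and 10.63, and CEBPG rose by 1.45 ± 0.11. Of 38 heat shock genes 7 were higher and 20 lower (2 and 18), with CHORDC1 at -1.82 ± 0.12 but HSPA2 at 2.23 ± 0.14. ATF6, a sensor of the unfolded protein response that spans 198 kb, was at least 6.02-fold lower. MAFG, the small MAF partner of NRF2, rose from 6.88, 6.92 and 7.03 to 9.45, 9.62 and 9.29, while GCLC, which makes the precursor of glutathione, fell by 1.35 ± 0.16, with 1 trabectedin array above background.

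The transcription machinery was called in both directions. Of 13 RNA polymerase II subunit genes 8 were higher and 2 lower (3 and 3), with a median of 0.53 (0.21 under median scaling) and a median span of 8.80 kb. POLR2A, the catalytic subunit, went from 11.42, 11.26 and 11.26 to 12.50, 12.46 and 12.65 (1.22 ± 0.11), and POLR2M rose by 1.81 ± 0.16. The general transcription factors and Mediator subunits, at a median span of 26.4 kb, were lower in 28 of 53 and higher in 14 (3 and 37). GTF2E2, of TFIIE, fell from 10.84, 11.10 and 11.16 to 8.42, 8.22 and 8.38 (-2.69 ± 0.13), and MED9 rose by 1.56 ± 0.19. POLR3B, the second largest subunit of RNA polymerase III, went from 9.01, 8.97 and 9.13 to the background and was at least 9.54-fold lower. Of the elongation factors 14 of 36 were higher and 16 lower (5 and 19). CDK9, the kinase of P-TEFb, rose from 7.73, 7.71 and 7.76 to 9.05, 9.11 and 9.07, and HEXIM1, its inhibitor, with a span of 3.62 kb, was detected on the trabectedin arrays alone, at least 2.19-fold higher. EAF2, which binds ELL, fell by 2.85 ± 0.25, and AFF3, a scaffold of elongation complexes that spans 597 kb, was at least 2.66-fold lower. Among splicing regulators CLK1, a kinase of SR proteins, rose by 1.20 ± 0.11, while SRPK2, another, was at least 5.12-fold lower.

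Chromatin regulators, many of them long, were lower in 36 of 54 and higher in 8 (3 and 41), with a median of -0.81 (-1.22 under median scaling), or -0.50 at the bounds, and a median span of 84.1 kb. CHD7, a chromatin remodeller, was at least 6.03-fold lower, and KMT2B, a histone H3 lysine 4 methyltransferase with a span of 20.9 kb, rose from 6.95, 7.03 and 6.66 to 8.36, 8.25 and 8.21. Genes known for very long introns, at a median span of 530 kb, were lower in 46 of 54 and higher in 2 (1 and 49), with a median of -1.43 (-2.14 under median scaling), or -0.82 at the bounds. The higher ones were VPS13B (0.96 ± 0.17, with 1 DMSO array above background) and GPC6 (0.70 ± 0.14, but -0.03 under median scaling). ZNF zinc finger genes were higher in 115 of 301 and lower in 75, a balance that turned under median scaling to 45 and 126. Within the family ZNF211, of 10.9 kb, rose by 2.36 ± 0.16 and ZNF385B, of 419.6 kb, fell by 3.37 ± 0.21, with 1 trabectedin array above background.

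**Figure D5:**
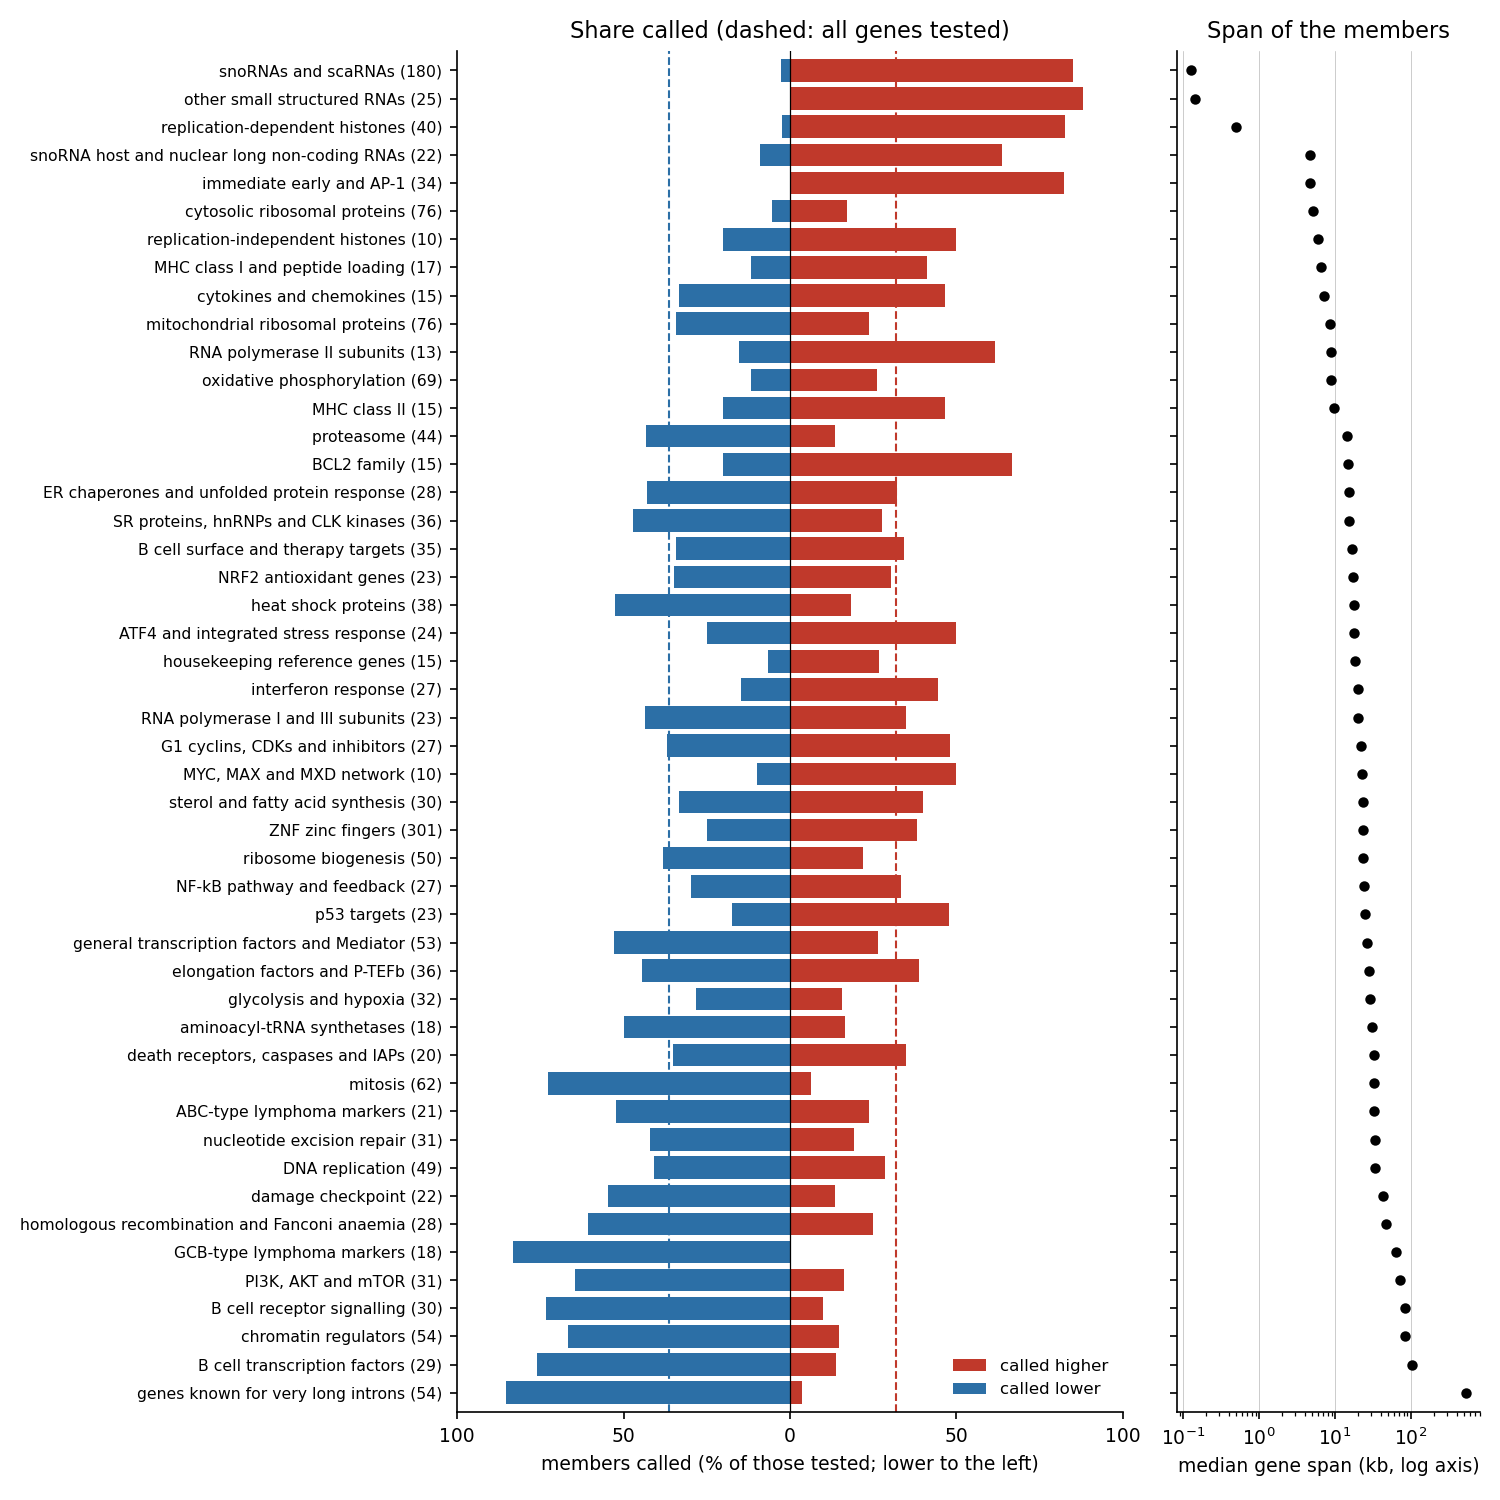
Left, the percentage of tested members called higher (right of 0) and lower (left of 0) in the gene groups reported that have at least 10 tested members, the number tested in brackets, with dashed lines at 32.0% and 36.2% for all genes. Right, the median gene span of the tested members on a log axis, by which the groups are sorted; the groups of small RNAs, histones and immediate early genes at the top are mostly higher, and those of long genes at the bottom mostly lower.

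Of 62 mitosis genes 45 fell and 4 rose (2 and 51), with a median of -0.69 (-1.31 under median scaling) at a median span of 32.6 kb. The checkpoint kinase TTK went from 9.45, 9.39 and 9.58 to 7.15, 6.88 and 6.66 (-2.58 ± 0.13), and the kinesin KIF20B was at least 4.97-fold lower. Against the group, BIRC5 (survivin) rose from 8.97, 9.28 and 9.08 to 10.84, 10.72 and 10.72 (1.65 ± 0.12), and CDCA5 (sororin), which protects cohesion, by 1.03 ± 0.13. Their spans, 11.4 and 22.9 kb, lie below the median of the group, but what part span has in the change of single genes was not tested. G1 regulators were called both ways, 13 higher and 10 lower of 27 (5 and 11). CDK6, the G1 kinase, fell from 9.78, 9.95 and 10.004 to 5.68, 5.38 and 6.14 (-4.18 ± 0.25, with 1 trabectedin array above background) in a gene of 232 kb. CCNE1, cyclin E1, rose from 7.94, 8.04 and 8.11 to 10.06, 9.93 and 10.03 (1.98 ± 0.12) and E2F8, a repressor of late cell cycle genes, by 1.82 ± 0.13. Of 49 replication genes 14 were higher and 20 lower (3 and 21). The origin recognition subunits ORC2 and ORC5 changed by -2.92 ± 0.20 and -2.49 ± 0.11, while the licensing factor CDT1 rose by 1.27 ± 0.25.

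Repair genes were described by pathway. Homologous recombination and Fanconi anaemia genes were lower in 17 of 28 and higher in 7 (0 and 21), and checkpoint genes lower in 12 of 22 and higher in 3 (1 and 15). WRN, the Werner helicase, went from 8.13, 8.29 and 8.04 to 6.08, 6.18 and 6.18 (-2.01 ± 0.15), NBN, of the MRN complex that senses breaks, fell by 1.84 ± 0.15, and TP53BP1, which directs breaks to end joining, fell by 1.89 ± 0.15. H2AX, the histone marked at breaks and a gene of 1.59 kb, rose from 9.30, 9.71 and 9.59 to 10.97, 10.91 and 10.77 (1.35 ± 0.25). Nucleotide excision repair, the pathway that meets trabectedin lesions, had 6 members higher and 13 lower of 31 (1 and 19), with a median of -0.04 (-0.63 under median scaling). Among the subunits of TFIIH, which opens DNA in repair and transcription, MNAT1 was at least 4.89-fold lower and spans 235 kb. ERCC2 (XPD), another subunit, of 20.7 kb, rose by 1.06 ± 0.15.

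Genes of cell death were called in both directions. Of 15 BCL2 family genes 10 were higher and 3 lower (2 and 5). BMF, a pro-apoptotic member, rose from 7.53, 7.31 and 7.43 to 8.78, 8.81 and 8.65 (1.32 ± 0.16), BCL2A1, a survival gene, by 1.07 ± 0.15, and BCL2L1 (BCL-XL) fell by 0.81 ± 0.22. CYCS, cytochrome c, went from 7.63, 7.36 and 7.56 to 9.98, 9.89 and 9.91 (2.41 ± 0.14), while APAF1, which it activates, was at least 2.37-fold lower. Targets of p53 were higher in 11 of 23 and lower in 4 (5 and 7). SERTAD1 rose by 2.33 ± 0.15 and the exonuclease AEN by 1.59 ± 0.19, and FBXW7, a ubiquitin ligase of 216 kb, was at least 8.11-fold lower.

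Transcripts of the protein-making and energy machinery had medians between -0.22 and 0.15 on the scale used here. Under median scaling the median was -0.59 for the aminoacyl-tRNA synthetases, -0.45 for the mitochondrial ribosomal proteins, -0.39 for ribosome biogenesis, -0.34 for sterol and fatty acid synthesis, -0.28 for the proteasome, 0.14 for oxidative phosphorylation and 0.20 for the cytosolic ribosomal proteins. Of 76 cytosolic ribosomal protein genes, 13 were higher and 4 lower (8 and 3), with a median of 0.03, and of 69 oxidative phosphorylation genes 18 and 8 (8 and 10), with a median of 0.15. Of 76 mitochondrial ribosomal protein genes 18 were higher and 26 lower (3 and 38). MRPS31 and MRPS35, at 42.1 and 45.5 kb, changed by -1.52 ± 0.15 and -1.33 ± 0.11, while MRPL44, at 16.9 kb, rose by 1.64 ± 0.10. Proteasome genes were lower in 19 of 44 and higher in 6 (1 and 17), with the assembly chaperone PSMG1 at -1.56 ± 0.11 and PSMG3 at 1.37 ± 0.15. In ribosome biogenesis DDX10, a helicase of 276 kb, fell from 10.07, 10.26 and 10.26 to 5.66, 5.33 and 5.90 (-4.57 ± 0.19), with only 1 trabectedin array above background, and PES1 rose by 1.32 ± 0.19. In lipid synthesis ACACA, the first enzyme of fatty acid synthesis, went from 8.90, 8.96 and 8.89 to 5.82, 5.47 and 5.39 (-3.36 ± 0.16, 322 kb, with 1 trabectedin array above background), while SC5D, of sterol synthesis, rose by 1.21 ± 0.14. Of the 18 aminoacyl-tRNA synthetases 9 were lower and 3 higher (0 and 10), with AARS1 at -1.70 ± 0.14.

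At 24 h, measured against DMSO arrays of that time, 35.9% of the genes tested were higher and 44.1% lower. Of the genes higher at 8 h, 2769 were higher again, which is 85.2% of the 8 h list and 76.0% of the 24 h list. Of the genes lower at 8 h, 3452 were lower again, 94.1% of the 8 h list and 77.3% of the 24 h list, while 133 genes turned from higher to lower and 29 from lower to higher. The difference between the effects at 24 h and 8 h was itself called in 41.3% of genes, with 2538 below and 1651 above 0. Under median scaling 12.3% of genes were higher and 62.8% lower at 24 h, and the difference from 8 h was above 0 in 292 and below 0 in 3225 genes. By span the 24 h medians ran 0.67, 0.20, -0.72, -1.77 and -1.53, in the order of the 8 h medians. UCP2, a mitochondrial uncoupling protein, was not called at 8 h (-0.13 ± 0.26, adjusted p = 0.674) and stood at -2.61 ± 0.26 at 24 h, a difference of -2.48 ± 0.36 (adjusted p = 1.07e-05). ATF3, a stress-induced transcription factor, had risen from 6.20, 6.05 and 6.35 to 8.238, 8.15 and 8.44 at 8 h (2.08 ± 0.25) and was at 4.53 ± 0.25 at 24 h (difference 2.45 ± 0.35, adjusted p = 8.15e-06).

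In OCI-Ly7 at 8 h, 29.2% of genes were higher and 31.3% lower against DMSO. Genes higher in both lines numbered 2034, which is 62.6% of the U2932 list and 68.6% of the OCI-Ly7 list, and genes lower in both 2479, 67.6% and 78.1%, while 104 genes rose in U2932 and fell in OCI-Ly7 and 149 the reverse. The medians by span ran in the same order, with 0.31, 0.20, -0.20, -0.91 and -0.68 in the 5 classes. The difference of the effects between the lines was called in 38.1% of genes, 2319 of them above 0 (OCI-Ly7 minus U2932) and 1548 below. Under median scaling 24.1% of genes were higher and 23.9% lower in OCI-Ly7, and the difference between the lines was above 0 in 4593 and below 0 in 389 genes. The lines were hybridised on different chips, so line and chip cannot be told apart, although each effect was taken within 1 line. PPP1R15A rose in U2932 (1.91 ± 0.21) and stood at -0.41 ± 0.21 in OCI-Ly7, a difference of -2.32 ± 0.30 (adjusted p = 3.04e-06). CBL, a ubiquitin ligase that restrains receptor kinases, fell in U2932 from 9.14, 9.05 and 9.15 to 6.18, 6.41 and 6.41 (-2.78 ± 0.18) and stood at -0.26 ± 0.18 in OCI-Ly7, a difference of 2.52 ± 0.25 (adjusted p = 1.25e-07).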

How the data were processed

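For 24 arrays of 47231 probes the authors deposited linear intensity, without detection p-values, and log2 values. The deposited log2 values equal the log2 intensities after quantile normalisation (largest difference 4.99e-09), and the intensities were used. Per the labels' protocols, total RNA was purified on columns and amplified with the Ambion TotalPrep kit. The scanner and its software are not given in the sources used here.

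Intensities were background-corrected with normexp (limma 3.58.1 in R 4.3.3, offset 16), with 694 probes of families that B cells do not express (olfactory and taste receptors among them) as negative controls, then log2-transformed and quantile-normalised over the 24 arrays. Detection p, the share of those 694 probes that were as bright or brighter, counted as detected under 0.01. Probes with 1 gene symbol in the platform's annotation (30113, against 8 with several and 17110 with none) and detected on at least 3 arrays were kept, and the brightest probe stood for a gene, which left 10138 genes. limma fitted 1 mean per group over the 24 arrays (16 residual degrees of freedom), with Benjamini-Hochberg adjustment over all genes and a threshold of 0.05. Symbols, spans, strands and promoters were those of RefSeq on GRCh38.p14, which matched 30074 probes. The number of arrays, 3 per group, limits the precision. A gene in the background on all arrays of 1 group has only a bound: the bright group's mean against, for each array, the higher of the dimmest detected probe and the gene's own value.

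Named genes were the 15 largest rises and falls among called genes detected on all 6 arrays with groups apart, the 10 largest bounds in each direction, up to 2 called members at either end of each of 55 gene lists, the 5 differences at either end of each comparison between effects, the neighbours, and marker genes. Of these, 1 gene and 1 list are not reported here. Others are said to have been chosen after their values were seen. The genes of this comparison and the lists were chosen with earlier results of these data known. The fit was tested on simulated data. Alternatives changed the background correction, the scaling, the filter, the probe choice and the arrays fitted, and left out each array in turn.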

Additional observations from a re-analysis of the deposited data

Results flagged for a closer look

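The effect of 8 h differed from that of 24 h in the same line, by limma's test of the difference between the effects, in the genes named here, which had the 5 lowest and 5 highest differences among genes detected on all 12 U2932 arrays. On the log2 scale the difference (24 h minus 8 h) was -2.68 ± 0.17 for NAPSB (adjusted p = 1.38e-10), -2.58 ± 0.16 for PIR, an iron-binding nuclear protein, -2.55 ± 0.22 for the plasminogen receptor gene PLGRKT, -2.54 ± 0.17 for SH3TC1 and -2.48 ± 0.36 for UCP2. It was 2.56 ± 0.19 for uridine phosphorylase UPP1 (adjusted p = 1.24e-09), 2.45 ± 0.35 for ATF3, 2.43 ± 0.20 for SNORD110, 2.36 ± 0.36 for SNORD3C and 2.31 ± 0.78 for the 18S ribosomal RNA probe RNA18SN5. At 8 h UPP1 had changed by 1.55 ± 0.13 and PIR by -0.55 ± 0.11.

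The 8 h effect differed between the lines, by the same kind of test (OCI-Ly7 minus U2932), among genes detected on all 12 arrays of 8 h. PPP1R15A (-2.32 ± 0.30), DDIT4 (-2.05 ± 0.54) and DDIT3 (-2.0 ± 0.34), 3 stress-induced genes, had the lower effect in OCI-Ly7, as had the glucocorticoid-induced TSC22D3 (-2.15 ± 0.21) and the licensing factor CDT1 (-2.10 ± 0.36). DDIT3 stood at 1.14 ± 0.24 in U2932 and at -0.86 ± 0.24 in OCI-Ly7. CBL (2.52 ± 0.25), NKAPD1 (2.38 ± 0.21), RPRD2 (2.23 ± 0.20), PTPRCAP, which binds CD45 (2.19 ± 0.20), and CXXC5 (2.06 ± 0.21) had the higher effect in OCI-Ly7. PTPRCAP stood at -0.52 ± 0.14 in U2932 and at 1.67 ± 0.14 in OCI-Ly7.

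Among probes to which the probe table gives no single gene symbol, which no comparison above uses, 134 were in the background on all 3 DMSO arrays, detected on all 3 trabectedin arrays and called higher.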

How the results depend on the processing

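Without background correction 407 genes were higher and 949 lower by at least 1 on the log2 scale. Median scaling gave 1095 genes higher, with 404 higher and 3298 lower by at least 1, 292 genes whose 24 h effect was above the 8 h effect, and 4593 and 389 whose OCI-Ly7 effect was above and below that of U2932. Over the genes detected on all 6 arrays alone, fewer genes by construction, 2227 were lower, 923 of them by at least 1, and 1467 had an effect in OCI-Ly7 above that in U2932. Leaving out 1 array at a time, 2971 to 3058 genes were higher and 3487 to 3515 lower, 1025 to 1042 and 1775 to 1817 of them by at least 1. The 24 h effect was then above in 1416 to 1472 and below in 2291 to 2357 genes, and the OCI-Ly7 effect above in 2031 to 2082 and below in 1326 to 1391.

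Replicate numbers did not pair the samples (correlations of same-numbered deviations 0.00905, 0.108 and -0.0543): with the replicate number as a block 3759 genes were higher and 4013 lower, against 3778 and 4029 in the same 6 arrays without it. Under median scaling H2BC11 stood at -0.41 and GPC6 at -0.026, both reversed, and BCL2A1 (0.31), CDT1 (0.67), DDIT3 (0.39), DDIT4 (0.48), ERCC2 (0.37), H4C3 (-0.13), IKZF2 (0.17), IRF1 (0.64), PES1 (0.64) and SNRPD3 (0.17) no longer passed; the cause was not tested beyond the shift of all genes. Of the 179 named genes 177 kept their call without each single array. PLGRKT (-0.39) lost it without trabectedin replicate 2 (-0.35), DMSO replicate 1 (-0.38) or DMSO replicate 3 (-0.35), and H2BC11 without trabectedin replicate 1 (0.36), DMSO replicate 1 (0.39) or DMSO replicate 3 (0.39). The median under 10 kb minus that at 100 to 300 kb was 1.71, 0.98 without background correction, 2.04 under median scaling and, at the highest, 2.50 over the genes of the middle tertile of mean level. In its probe signal, the background limits 1034 lost and 221 appeared genes to bounds.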

Other observations

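Probes without a single gene symbol were called higher in a larger share than named genes, although the units differ. These probes were counted singly, with an adjustment of their own, while each gene stood by its brightest probe. Of 4046 such probes tested, 1732 (42.8%) were called higher and 731 (18.1%) lower with limma at an adjusted p under 0.05, beside 32.0% and 36.2% of the genes. By RefSeq biotype, 100 of 198 long non-coding RNAs were higher and 25 lower, 19 of 36 microRNA genes were higher and 2 lower, and of 9499 protein-coding genes 2877 were higher and 3602 lower. Microarray probes for microRNA genes read the host or precursor transcript at most, and the mature microRNAs were not measured.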
